A study of Homo sapiens with 6 samples.

Results

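The 7 inhibitors of cyclin-dependent kinases (CDKs) CDKN1A, CDKN1B, CDKN1C, CDKN2A, CDKN2B, CDKN2C and CDKN2D, the F-box gene SKP2 and its cofactor CKS1B were followed in A549 cells with and without the MIR21 locus. They were taken by gene symbol, as 9 of the 58174 genes measured, and each symbol was found. A549 is an established line from a human lung adenocarcinoma. The 3 libraries of the group Ctrl come from the parental cells, and the 3 libraries of the group MIR21-KO come from A549 cells in which Cas9 and a pair of guide RNAs removed the MIR21 locus. Both groups were grown alike and harvested 48 h after seeding. MIR21-KO cells were raised from sorted single cells, whereas Ctrl cells were not cloned. How many clones stand behind the 3 MIR21-KO libraries is not given, so what belongs to a clone and what belongs to the deletion cannot be told apart.

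CDK inhibitors hold back the kinases that drive cells from G1 into S phase. Proteins of the CIP/KIP family (CDKN1A encodes p21, CDKN1B p27 and CDKN1C p57) bind complexes of cyclins and CDKs, while those of the INK4 family (CDKN2A encodes p16 and, from another reading frame, ARF; CDKN2B encodes p15, CDKN2C p18 and CDKN2D p19) bind CDK4 and CDK6 alone. SKP2 is the subunit by which the SCF ubiquitin ligase holds its substrates, and CKS1B is the small protein that SKP2 needs to recognise p27 and send it for degradation. A549 is known for a homozygous loss around CDKN2A. The values here are of polyadenylated RNA, and they do not show protein levels.

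As the deleted locus encodes miR-21-5p, the longest annotated 3' UTR of each member was searched for its seed match. The let-7 seed match was searched as well. It is no neutral control, as the paper reports raised let-7 miRNAs in MIR21-KO A549 cells. The mature miRNAs are shown, from RefSeq (GRCh38.p14), with the seed (bases 2 to 8) in capitals, because the sites below are defined by them.
hsa-miR-21-5p: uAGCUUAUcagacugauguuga
hsa-let-7a-5p: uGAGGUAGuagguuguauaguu

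SKP2 was the only member whose longest 3' UTR held the heptamer complementary to the miR-21-5p seed, and it held the 8-base form (ATAAGCTA) at 2 places. Of the 11643 tested protein-coding genes with a 3' UTR, 334 (2.87%) held at least one such octamer. Both SKP2 sites are shown 5' to 3' (GRCh38, GENCODE 29, plus strand) with the 8 matched bases in capitals, since SKP2 also had the smallest FDR of the members tested.
SKP2 site 1, matched bases at chr5:36182459-36182466, position 428 of the UTR: cagcttagaagaacaATAAGCTA
SKP2 site 2, matched bases at chr5:36183929-36183936, position 1898 of the UTR: aactcaagtccagccATAAGCTA

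These sites belong to the SKP2 transcripts with 3' UTRs of 2288 and 2007 bases. The other annotated forms, with 3' UTRs of 30 and 141 bases, hold neither, and a table of gene totals does not say which transcript was read. The let-7 octamer (CTACCTCA) was found in CDKN1A alone among the members, in 4 of its 5 transcripts with a 3' UTR, and in 507 of the 11643 genes (4.35%).
CDKN1A site, matched bases at chr6:36686743-36686750, plus strand: aagggcaccctagttCTACCTCA

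A match of letters is a description and does not show that a miRNA binds there.

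MIR21 was listed at 0 in every library, of both groups, so its row does not check the labels of these polyA libraries. VMP1, the gene whose 3' end reaches into the MIR21 locus, was at 70.7, 76.8 and 77.8 FPKM (fragments per kilobase of gene, scaled to library size) in Ctrl and at 135, 144 and 149 FPKM in MIR21-KO. Libraries held 10631667 to 14345209 reads, so that 1 read per kb of gene equals 0.0731 to 0.0930 FPKM. Of the epithelial markers, KRT7, KRT8 and KRT18 were above 300 FPKM in every library, and the summed level of all 7 markers was 1684 to 1807 FPKM in Ctrl and 1218 to 1745 FPKM in MIR21-KO. CDH1, which encodes E-cadherin, was lower in MIR21-KO (8.18 ± 0.58 and 2.86 ± 0.15 FPKM; SD, n = 3; FDR 0.00018), EPCAM was at 1.19 ± 0.52 and 0.695 ± 0.288 FPKM (FDR 0.273), and CLDN4 was at 0.397 ± 0.071 and 0.499 ± 0.057 FPKM. Summed fibroblast markers reached 5.89 and 7.74 FPKM at most in the respective groups, endothelial markers 0.0855 and 0.0421 FPKM, and leukocyte markers 4.502 and 5.51 FPKM, with CD3E at 0. MIR21-KO replicates 1 and 3 were the least alike of all same-group pairs, with a Pearson r across genes of 0.933 on the log2 scale. In bulk RNA, fewer cells of a kind (cycling cells, for instance) and less RNA per cell cannot be told apart.

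Of the 9 members, 6 passed the filter of a mean of 0.5 FPKM or more, and 3 of these were called at a false discovery rate (FDR) under 0.01 by limma. SKP2 and CDKN2C were higher in MIR21-KO, and CKS1B was lower. CDKN1A, CDKN1B and CDKN2D were not called. CDKN1C lay under the filter at a low level, higher in MIR21-KO, while CDKN2A and CDKN2B had no read at all. Over all 16006 genes tested, 16.0% were called (7.66% higher and 8.38% lower), so the 3 calls stand against a broad change. The groups did not overlap for 4 of the 6 tested members, but this held for 48.1% of all genes tested. With 3 libraries against 3, an exact two-sided permutation test of one gene cannot fall below p = 0.1. The labels do not say that libraries of one group came from separate cultures. The paper states that its experiments used at least biological triplicates, and describes these RNA-seq values as coming from 3 independent samples. How those samples were kept apart is not stated there. The FDRs thus measure the spread between these libraries, which may in part be technical.

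**Figure D1:**
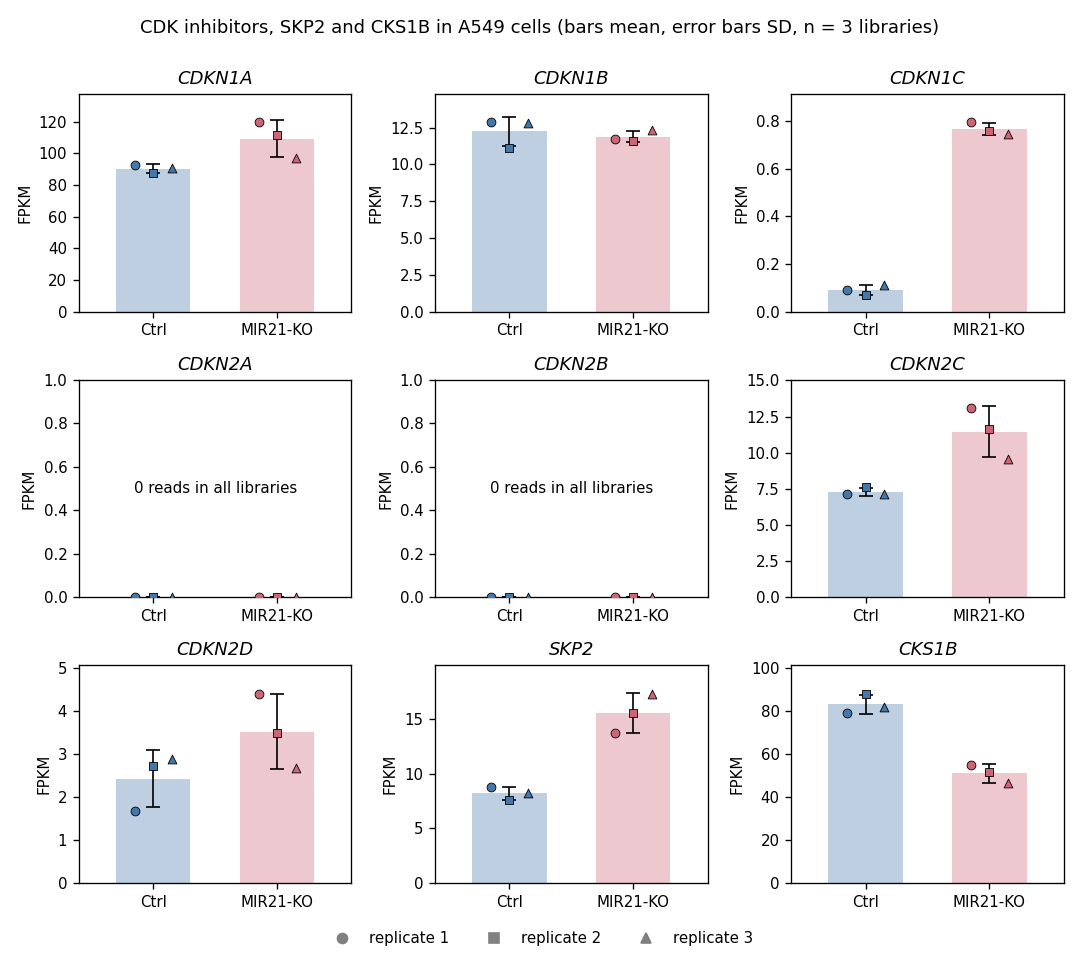
Level of each member (FPKM, linear axes from 0) in the 3 Ctrl and 3 MIR21-KO libraries; bars are means, error bars SD, and circles, squares and triangles mark replicates 1, 2 and 3. SKP2, CDKN2C, CDKN1C and CDKN1A (not called) lie higher and CKS1B lower in all 3 MIR21-KO libraries. CDKN1B and CDKN2D overlap between groups, and CDKN2A and CDKN2B are at 0 reads.

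CDKN1A (chr6:36676460-36687339, plus strand; GRCh38 as for all members) was the most abundant inhibitor. It was measured at 92.8, 87.3 and 90.4 FPKM in Ctrl and at 119.5, 111.5 and 96.9 FPKM in MIR21-KO replicates 1 to 3. All MIR21-KO libraries lay above all Ctrl libraries, with replicate 3 closest to them. The difference on the log2(FPKM + 0.1) scale was 0.27 with a standard error (SE) of 0.10, and its FDR of 0.0736 missed the threshold. The FDR was 0.0075 without MIR21-KO replicate 3 and lay between 0.0434 and 0.208 under the other 20 alternatives. The 95% interval of the fold ran from 1.03 to 1.42.

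CDKN1B (chr12:12715058-12722371, plus strand), which encodes the main substrate of SKP2 among the inhibitors, showed 12.9, 11.1 and 12.8 FPKM in Ctrl and 11.7, 11.6 and 12.3 FPKM in MIR21-KO. The groups overlapped throughout. The difference was -0.04 (SE 0.09, FDR 0.739), with a 95% interval of the fold from 0.844 to 1.12. Changes of CDKN1B mRNA beyond this range were thus not seen, and none was called under any of 21 alternatives (FDR 0.403 to 0.971).

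CDKN1C (chr11:2883213-2885773, minus strand), an imprinted gene, was found at 0.0911, 0.0719 and 0.113 FPKM in Ctrl, which are 3, 2 and 4 reads. In MIR21-KO it was at 0.795, 0.758 and 0.745 FPKM, which are 28, 24 and 25 reads. The groups lay far apart, and the spread within MIR21-KO was small. Summed reads rose from 9 to 77, a ratio of 8.19 after scaling by library size, with an exact binomial (Clopper-Pearson) 95% interval of 4.10 to 18.6 that covers counting error only. In a fit of all 29384 genes with any read, where 6.16% were called, the difference was 2.18 (SE 0.25, FDR 0.0033). The call was lost without Ctrl replicate 1 (FDR 0.0174), 2 (0.0147) or 3 (0.0150) and without MIR21-KO replicate 1 (0.0135) or 2 (0.0227).

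The INK4 genes fell into a pair without reads and a pair with reads. CDKN2A (chr9:21967753-21995301, minus strand) and CDKN2B (chr9:22002903-22009363, minus strand) were listed at 0 in each of the 6 libraries, with 0 of 76068872 reads. A count of 0 allows up to 3 reads per library, which is at most 0.0507 to 0.0644 FPKM for CDKN2A and 0.0541 to 0.0687 FPKM for CDKN2B. The 37 mitochondrial genes are listed at 0 as well, so a listed 0 alone does not show whether a gene is expressed.

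CDKN2C (chr1:50960745-50974633, plus strand) was the most abundant INK4 gene. It stood at 7.17, 7.62 and 7.12 FPKM in Ctrl and at 13.1, 11.7 and 9.57 FPKM in MIR21-KO. Ctrl libraries differed little (coefficient of variation 3.79%), MIR21-KO libraries more (15.5%), and the groups did not overlap. The rise was 1.55-fold (95% interval 1.26 to 1.90; log2 difference 0.63, SE 0.12), with an FDR of 0.0098 just under the threshold. CDKN2C was not called without Ctrl replicate 1 (FDR 0.0413), 2 (0.0319) or 3 (0.0429), without MIR21-KO replicate 1 (0.0158) or 2 (0.0467), or in the fit of all genes with any read (0.0209).

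CDKN2D (chr19:10566462-10569059, minus strand) was low, at 1.67, 2.72 and 2.87 FPKM in Ctrl and 4.40, 3.48 and 2.67 FPKM in MIR21-KO. MIR21-KO replicate 3 lay among the Ctrl libraries. The difference of 0.53 (SE 0.26, FDR 0.167) was not called, rests on 32 to 90 reads a library, and its interval of the fold, 0.940 to 2.21, holds both no change and a rise as large as that of SKP2.

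SKP2 (chr5:36151989-36184319, plus strand) gave 8.82, 7.61 and 8.25 FPKM in Ctrl and 13.8, 15.6 and 17.4 FPKM in MIR21-KO. Each MIR21-KO library lay well above the Ctrl libraries. The rise was 1.88-fold (95% interval 1.57 to 2.25; log2 difference 0.91, SE 0.11, FDR 0.0016). The FDR rose above 0.01 without Ctrl replicate 2 (0.0101), Ctrl replicate 3 (0.0111) or MIR21-KO replicate 2 (0.0126).

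CKS1B (chr1:154974653-154979249, plus strand) went the other way. It was at 79.2, 88.1 and 81.9 FPKM in Ctrl and at 55.1, 51.8 and 46.4 FPKM in MIR21-KO. No MIR21-KO library reached the level of a Ctrl library. The fold was 0.615 (95% interval 0.529 to 0.714), and the log2 difference fell by 0.70 (SE 0.09, FDR 0.0021). The FDR rose to 0.0116 to 0.0156 without any one Ctrl library or without MIR21-KO replicate 2.

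**Figure D2:**
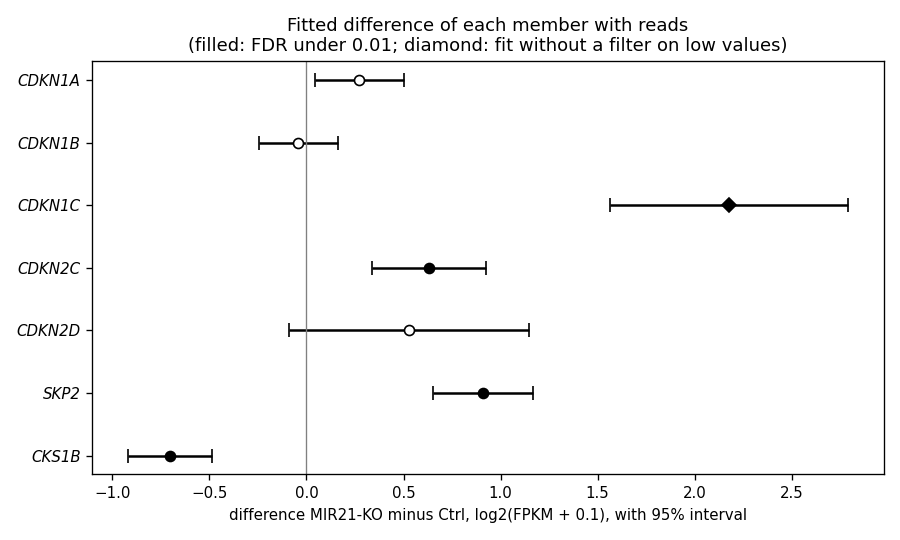
Fitted difference between MIR21-KO and Ctrl on the log2(FPKM + 0.1) axis for the 7 members with reads, with 95% intervals; filled symbols have an FDR under 0.01 and the diamond (CDKN1C) comes from the fit of all genes with any read. SKP2 (0.91) and CKS1B (-0.70) lie on opposite sides of 0, and the intervals of CDKN1B and CDKN2D hold 0.

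SKP2 and CKS1B therefore moved apart. In FPKM, CKS1B was 10.2 ± 1.32 times SKP2 in Ctrl and 3.33 ± 0.66 times SKP2 in MIR21-KO (SD, n = 3). The lowest Ctrl ratio was 8.97 and the highest MIR21-KO ratio 3.998. As neither gene overlapped between groups and they moved in opposite directions, this ratio could not overlap and adds no evidence. SKP2 was 0.672 ± 0.024 times CDKN1B in Ctrl and 1.31 ± 0.12 times CDKN1B in MIR21-KO. The groups did not overlap here either, as for SKP2 alone. How many other gene pairs separate in this way was not computed.

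Levels of the members were ranked by FPKM, which rests on the deposited length of each gene (3050 bases for CDKN1A and 2338 for CKS1B). That length may differ from the transcripts read, so the order between genes, close ones above all, depends on it. In Ctrl the order was CDKN1A (90.2 FPKM) and CKS1B (83.0 FPKM), whose libraries overlapped, then CDKN1B (12.3 FPKM), then SKP2 (8.23 FPKM) and CDKN2C (7.30 FPKM), which overlapped too, then CDKN2D (2.42 FPKM) and CDKN1C (0.0920 FPKM). In MIR21-KO, CDKN1A (109.3 FPKM) stood clear of CKS1B (51.1 FPKM), and SKP2 (15.6 FPKM) had passed CDKN1B (11.9 FPKM). CDKN1B and CDKN2C (11.4 FPKM) overlapped there. CDKN1A was higher than 97.1% of all tested genes in Ctrl, and CKS1B than 96.8%. CDKN1A made up 80.3 ± 0.6% of the summed FPKM of the 7 inhibitors in Ctrl and 79.8 ± 0.5% in MIR21-KO, ranges that overlapped.

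Within MIR21-KO the libraries were ordered in the same manner for several members. Replicate 1 was highest and replicate 3 lowest for CDKN1A, CDKN1C, CDKN2C, CDKN2D and CKS1B, and the reverse was seen for SKP2. Each library's deviation from the mean of all libraries was correlated with GC content across genes. That correlation ran from 0.249 in MIR21-KO replicate 1 through 0.142 to -0.136 in replicate 3, against -0.144 to -0.041 in Ctrl. GC content of the longest transcript was 58.1% to 63.8% for CDKN1A, CDKN1C, CDKN2C and CDKN2D. It was 43.7% for CKS1B and 41.3% for SKP2, which were ordered in opposite ways. Whether GC content gave this order was not tested. After removal of each library's dependence on GC content and length, the log2 differences were 1.04 for SKP2 (FDR 0.00016), -0.64 for CKS1B (0.00055), 0.54 for CDKN2C (0.00071), 0.38 for CDKN2D (0.141) and 0.18 for CDKN1A (0.0524).

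**Figure D3:**
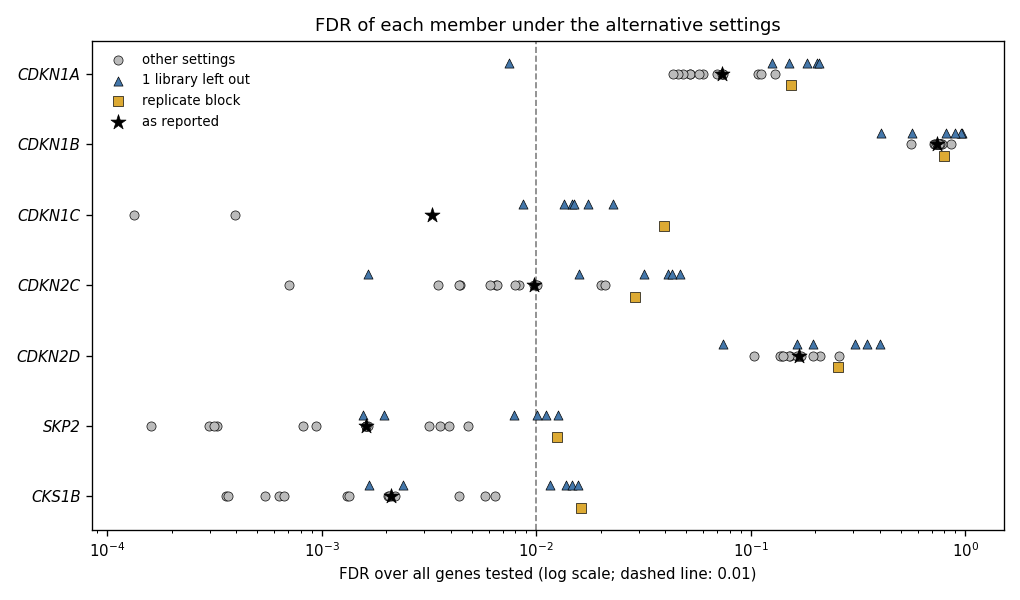
FDR of each member (log axis, dashed line at 0.01) as reported (star), with 1 library left out (triangles), with a replicate block (squares) and under other settings (circles); for CDKN1C the star is the fit of all genes with any read. SKP2 and CKS1B fall below 0.01 in all settings but the block and some fits lacking a library, and CDKN1B and CDKN2D never do. The circles of CDKN1C require a mean of 10 reads, which it reaches only through its MIR21-KO libraries, so they add no evidence.

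Other genes share sequence with CKS1B. Its processed pseudogene CKS1BP3 held 392 reads in all, with a mean of 28.2 FPKM in Ctrl and 15.9 FPKM in MIR21-KO, and CKS1BP2, CKS1BP1 and CKS1BP7 held 94, 59 and 5 reads, while CKS1BP5 and CKS1BP6 held none. Even the lowest CKS1B library had 1406 reads. How reads shared by CKS1B and these copies were assigned is not given in the sources used here, so a part of either value may belong to the other. MIR4258 (52 reads) lies within CKS1B on the same strand, RP11.180M15.7 (30 reads) overlaps CDKN1B, and RNU6.1305P (0 reads) overlaps SKP2. RP11.145E5.5 and CDKN2B-AS1, which overlap CDKN2A and CDKN2B on the other strand, were at 0 as well.

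Genes without reads extended along 9p21 on either side of CDKN2A and CDKN2B. From the start of MTAP, a gene of methionine salvage, to the end of the antisense gene CDKN2B-AS1 (chr9:21802543-22121097), 12 of 14 annotated genes had no read, and the other 2 together had 29 reads in the 6 libraries. MTAP had 27 of these and the pseudogene TUBB8P1 had 2. CDKN2A-AS1 was at 0. The nearest genes with at least 10 reads in each library were MIR31HG, 243 kb to the left, and DMRTA1, 326 kb to the right. Fewer reads were held by the noncoding RP11.408N14.1 (chr9:22203990-22214672), which lies between the segment and DMRTA1. It had 13 summed reads in Ctrl and 19 in MIR21-KO, with at least 2 in each library. Of the 17 genes listed around CDKN2A, 15 were in the table and 6 were tested. LINC01239, a noncoding gene beyond DMRTA1, was at 0.406 ± 0.103 FPKM in Ctrl and 1.504 ± 0.36 FPKM in MIR21-KO (SD, n = 3), and passed the filter only through the latter. IFNE, an interferon gene inside MIR31HG, was higher in MIR21-KO (2.93 ± 0.58 and 7.24 ± 0.80 FPKM, FDR 0.0022). MIR31HG was higher there as well (log2 difference 0.87, FDR 0.0012). As IFNE and MIR31HG lie on the same strand, their reads may be confused. MLLT3, which encodes a subunit of the super elongation complex, was lower (1.62 ± 0.10 and 0.816 ± 0.050 FPKM; FDR 0.0065).

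**Figure D4:**
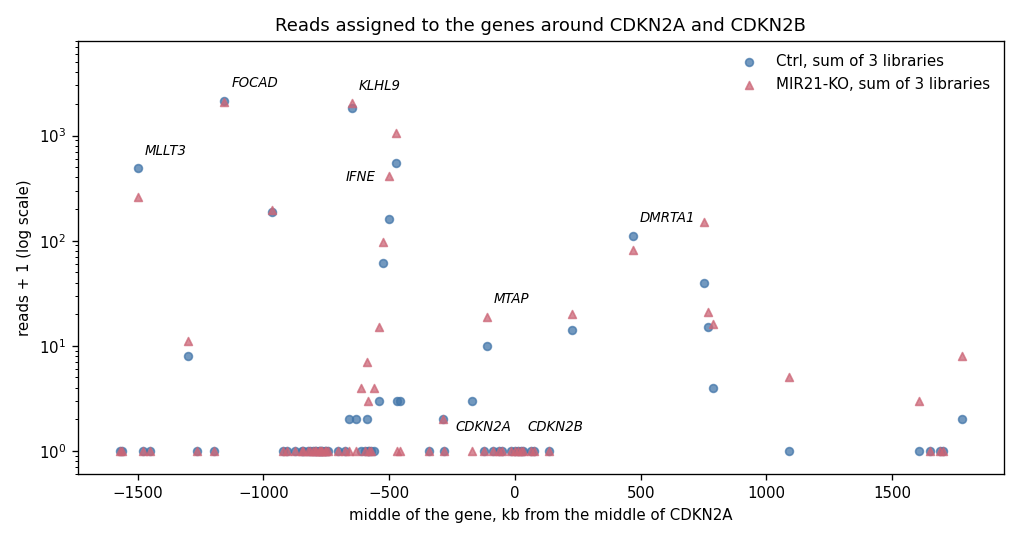
Reads + 1 (log axis) assigned to each annotated gene around CDKN2A and CDKN2B, summed over the 3 libraries of a group, against the distance of the gene's middle from that of CDKN2A in kb; circles are Ctrl and triangles MIR21-KO. Genes from CDKN2A to CDKN2B-AS1 lie at 0 reads, MTAP reaches 27 reads in all, and both groups show the same gap.

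CDKN1C lies in an imprinted domain of 11p15. Of 16 genes listed there, 7 passed the filter and limma called none of them at an FDR under 0.01, nor did voom, although 3 had an unadjusted p under 0.05 in each; their median log2 difference was -0.01. PHLDA2, a growth-restraining imprinted gene beside CDKN1C, was at 14.5 ± 1.41 FPKM in Ctrl and 11.2 ± 2.14 FPKM in MIR21-KO (FDR 0.0954), and the antisense transcript KCNQ1OT1 was at 138 and 199 summed reads (log2 difference 0.15, SE 0.25, FDR 0.725 in the fit of all genes with any read). At the other end of the domain, IGF2 and H19, named here after their values were seen, went in the opposite direction to CDKN1C. IGF2, a growth factor gene, had 155 reads in Ctrl and 10 in MIR21-KO (FDR 0.0055 in the fit of all genes with any read), and the noncoding H19 had 48 and 3 (FDR 0.0073). Both were under 1 FPKM in every library. Neither was called when any 1 of the 6 libraries was left out (FDR 0.0133 to 0.0327 for IGF2 and 0.0119 to 0.0360 for H19).

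Beyond the members, 134 genes in 9 lists were followed, of which 132 were in the table and 115 were tested. Of these 40 were called (34.8%), 8 higher and 32 lower, against 16.0% of all genes tested (7.66% higher and 8.38% lower). Without MIR21-KO replicate 2, Ctrl replicate 2, Ctrl replicate 3 or Ctrl replicate 1 this count was 11, 12, 13 or 15. Of all 16006 genes, 768, 922, 873 or 895 were called in these fits, against 2568 with all libraries. Without MIR21-KO replicate 1 or 3 the count was 39 or 49, with 2193 or 3400 of all genes called. Lists share genes (CCND1, CCNE1, CCNB1 and others), and the median log2 difference of all genes tested was -0.02.

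Of 14 other subunits and cofactors of SCF ligases, 3 were called lower and none higher, and 13 had a negative difference (median -0.35). The share called, 21.4%, is not far from the 16.0% of all genes and rests on 3 genes, so it is no result about the list. CKS2, the paralog of CKS1B, fell from 265 ± 14.5 to 139 ± 15.9 FPKM (SD, n = 3; FDR 0.0014). CCNF, another F-box gene, fell from 8.76 ± 0.54 to 5.79 ± 0.28 FPKM (FDR 0.0034), and the scaffold CUL1 from 29.7 ± 2.2 to 21.6 ± 1.1 FPKM (FDR 0.0071). SKP1, which joins SKP2 to CUL1, was at 15.3 FPKM in both groups. The ratio of CKS1B to CKS2 was 0.313 ± 0.002 in Ctrl and 0.369 ± 0.012 in MIR21-KO. The groups did not overlap, but how often ratios of other gene pairs separate was not computed.

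Of 12 regulators of SKP2 stability, 2 were called lower and none higher (median -0.37), a share of 16.7% that is near the 16.0% of all genes and so no result about the list. CDC20, an activator of the anaphase-promoting complex, fell from 102 ± 3.85 to 55.5 ± 7.82 FPKM (FDR 0.0023), and USP10, a deubiquitinase, from 24.4 ± 1.08 to 15.04 ± 2.22 FPKM (FDR 0.0053). FZR1, whose product directs SKP2 to degradation, was at 8.45 ± 0.28 and 8.72 ± 0.94 FPKM (FDR 0.793).

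Among 11 tested substrates of SKP2 other than CDK inhibitors, 3 were lower and none higher (median -0.12). That is 27.3% called, against 16.0% of all genes, and it rests on 3 genes. CCND1, which encodes cyclin D1, fell from 78.6 ± 3.02 to 26.8 ± 1.52 FPKM (FDR 6.4e-05), ORC1, a subunit of the origin recognition complex, from 11.1 ± 0.44 to 5.73 ± 0.58 FPKM (FDR 0.00085), and CCNE1, which encodes cyclin E1, from 18.2 ± 0.87 to 9.93 ± 0.87 FPKM (FDR 0.00086). These are levels of RNA, whereas SKP2 acts on the proteins.

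Cyclins and kinases, the partners of the inhibitors, were mostly lower. Of those tested 72.7% were called, against 16.0% of all genes tested (8.38% lower). Of 11 tested cyclins, CDKs and CDC25A, 8 were lower and none higher (median -0.54), and the 3 with the largest differences were CCND1, CCNB1 (122 ± 2.83 to 55.8 ± 3.49 FPKM; FDR 0.00020) and CCNE1. Not all of them act in G1: CCNB1 encodes the mitotic cyclin B1, and CCNA2 and CDK1, also called lower, act after G1 as well. CDK4 and CDK6, the kinases that INK4 proteins bind, were not called (FDR 0.336 and 0.111). Of 20 proliferation genes, 15 were lower and none higher (median -0.68). That is 75.0% called, against the same 16.0% of all genes. AURKA, a mitotic kinase, fell from 62.3 ± 1.86 to 27.8 ± 1.62 FPKM (FDR 0.00016), and MCM2, a subunit of the replicative helicase, from 36.1 ± 1.93 to 16.5 ± 0.82 FPKM (FDR 0.00019).

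Of 18 transcriptional regulators of the inhibitors, 3 were lower and none higher (median 0.01), which is also 16.7% and near the share of all genes. KLF4, an activator of CDKN1A, fell from 1.90 ± 0.37 to 0.534 ± 0.040 FPKM (FDR 0.0018), TFAP2A from 5.39 ± 0.18 to 3.33 ± 0.36 FPKM (FDR 0.0048), and EZH2, the Polycomb methyltransferase, from 14.0 ± 0.35 to 9.92 ± 0.56 FPKM (FDR 0.0039). MYC, a repressor of CDKN1A and CDKN2B, was at 38.7 ± 2.55 and 39.2 ± 0.90 FPKM (FDR 0.862). FOXO3, an activator of CDKN1B, was at 2.88 ± 0.30 and 3.31 ± 0.40 FPKM (FDR 0.325).

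**Figure D5:**
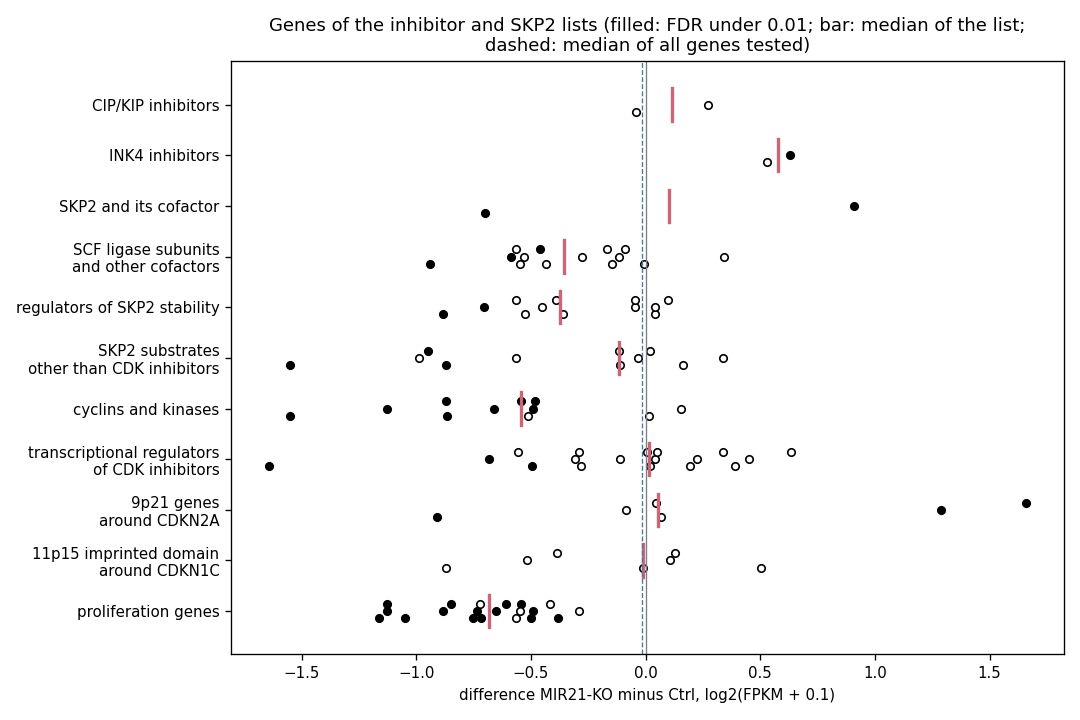
Log2 difference between MIR21-KO and Ctrl (log2(FPKM + 0.1) axis) of every tested gene of the lists described here; filled points have an FDR under 0.01, red bars are list medians and the dashed line is the median of all genes tested (-0.02). The lists of proliferation genes (median -0.68) and of cyclins and kinases (-0.54) lie furthest left of those shown.

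As SKP2 and CKS1B moved in opposite directions, their promoters (RefSeq, GRCh38.p14, 250 bases before to 50 after the start, plus strand) are shown for comparison, with motif letters in capitals. Searched on both strands were the box CCAAT, the TATA box letters TATAAA, the letters TTTGAA of the cell cycle homology region, and E2F sites written as TTTCCCGC or as TTTGGCGC or as TTTCGCGC or as TTTGCCGC.
CKS1B promoter, chr1:154974431-154974730: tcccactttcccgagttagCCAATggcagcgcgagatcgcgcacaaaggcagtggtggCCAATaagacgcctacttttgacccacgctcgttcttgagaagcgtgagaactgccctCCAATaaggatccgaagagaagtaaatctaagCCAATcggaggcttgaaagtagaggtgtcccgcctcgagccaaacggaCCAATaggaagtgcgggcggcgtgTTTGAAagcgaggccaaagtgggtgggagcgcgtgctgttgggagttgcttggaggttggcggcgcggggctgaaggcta
SKP2 promoter, chr5:36151861-36152160: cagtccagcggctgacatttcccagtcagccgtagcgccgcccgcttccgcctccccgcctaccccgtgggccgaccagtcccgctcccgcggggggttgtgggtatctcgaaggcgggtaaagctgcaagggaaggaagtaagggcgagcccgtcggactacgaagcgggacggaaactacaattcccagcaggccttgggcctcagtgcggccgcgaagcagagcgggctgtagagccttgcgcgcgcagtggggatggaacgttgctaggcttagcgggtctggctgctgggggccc

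The CKS1B promoter held CCAAT 5 times, at -231, -192, -134, -102 and -54, and TTTGAA at -30 (bases from the start). At least 5 CCAAT were held by 126 of 35116 promoters of this length (0.359%), whereas one or more was held by 34.6% and TTTGAA by 15.2%. The SKP2 promoter held none of the letters searched, which says only that they are not in this window; E2F letters were in 3.31% and TATAAA in 11.5% of promoters. Among the other members, CCAAT was found in CDKN1B, CDKN2C and CDKN2D, and in neither CDKN1A, CDKN2A nor CDKN2B. The promoter of CDKN1C was not analysed here.

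Many genes followed SKP2 across the libraries. Of 6797 protein-coding genes with a mean of 5 FPKM or more, 377 had a Pearson r above 0.95 with SKP2 over the 6 libraries. The 3 closest were GOLGA8B (r = 0.999; 8.84 ± 0.36 and 12.7 ± 0.81 FPKM), OLFML2A (10.5 ± 0.31 and 14.5 ± 0.83 FPKM) and the translation factor gene EIF4B (107 ± 2.83 and 149 ± 8.04 FPKM). For CDKN1A 243 genes passed this r, led by OCEL1 (r = 0.995; 3.81 ± 0.15 and 6.25 ± 1.51 FPKM), APBB1 (6.72 ± 0.27 and 9.42 ± 1.45 FPKM) and PLIN3 (45.0 ± 1.39 and 54.7 ± 7.12 FPKM). These r describe 6 points in 2 groups that share libraries, and a gene that differs between the groups has a high r by that alone.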

How the data were processed

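PolyA RNA of A549 Ctrl and MIR21-KO cells, 3 libraries each, grouped by sample title, was made into strand-specific libraries. The authors deposited FPKM values per gene and library, with gene lengths, and their own log2 fold changes, p-values and FDRs, which were not used. Their processing notes name cutadapt 1.14, HISAT2 2.1.0, SAMtools 1.5, featureCounts 1.5.3 and hg38. The annotation release and the handling of shared reads are not given in the sources used here. FPKM times length gave whole reads (100% of values, tolerance 0.01). All 37 mitochondrial genes are listed at 0.

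Genes whose mean reached 0.5 FPKM entered a limma 3.58.1 fit of log2(FPKM + 0.1) (R 4.3.3; trend and robust fitting, no covariate, two-sided, Benjamini-Hochberg over all genes tested, FDR under 0.01). Fold changes of low genes are understated on this scale. The script was tested on simulated data. Coordinates and 3' UTRs came from GENCODE 29, to which 57836 of 58174 genes (99.4%) matched by identifier. The members and lists were chosen with earlier results of these data known. One of the 9 lists of other genes, which holds 6 of the 8 higher and 3 of the 32 lower calls in their total, and 1 leukocyte marker are not reported here. Named were all 9 members, up to 3 called genes per list and direction with the largest difference and at least 1 FPKM in one group, the 3 genes most like SKP2 and CDKN1A, and overlapping genes and pseudogenes. List genes named as not called, and IGF2 and H19, were named for their role or after their values were seen.

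Alternatives were other filters, pseudocounts, scalings, thresholds and test settings, limma's voom on the recovered reads, removal of GC and length trends, a replicate block and leaving out each library. Intervals on reads cover counting error only.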

Additional observations from a re-analysis of the deposited data

How the results depend on the processing

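The difference of each member with reads kept its direction under every alternative run. Changes of filter, threshold, limma fitting options or replicate block leave the difference itself as it was, so they could not change its direction. For CDKN1B it ran from -0.110 to -0.006, which is close to no difference. At an FDR under 0.05, 5114 genes and 62 list genes were called in place of 2568 and 40, with the same 3 members. With GC and length trends removed 3960 genes were called. CDKN2C (log2 difference 0.63) was not called without a filter on low values (FDR 0.0209) or with limma without trend and robust fitting (0.0201). Nor was it called with a pseudocount of 1 (log2 difference 0.57, FDR 0.0101). In the replicate block 651 genes, 10 list genes and 0 members were called by limma, though 3 of 6 members had an unadjusted p under 0.05, and CDKN2C (0.63, FDR 0.0289), SKP2 (0.91, 0.0126), CKS1B (-0.70, 0.0163) and CDKN1C (2.18, 0.0396) lost their calls. With GC and length trends removed as well as the replicate block, 1770 genes, 35 list genes and 3 members were called (SKP2 1.04, FDR 0.0036; CKS1B -0.64, 0.0057; CDKN2C 0.54, 0.0083). Same-numbered libraries did not deviate together (correlations -0.171, -0.018 and -0.017), so the numbers give no pairing. With 1 library left out, 768 to 3400 genes, 11 to 49 list genes and 0 to 4 members were called, and log2 differences were 0.21 to 0.36 for CDKN1A, 2.101 to 2.26 for CDKN1C, 0.53 to 0.75 for CDKN2C, 0.83 to 0.995 for SKP2 and -0.76 to -0.63 for CKS1B. SKP2 was then called in 3 of 6 fits, CKS1B in 2, and CDKN2C, CDKN1C and CDKN1A in 1 each; the cause was not tested. Requiring a mean of 10 reads, fitting voom on those genes and scaling by total reads were added after seeing the data. CDKN1C passes the filter of 10 reads only through its MIR21-KO libraries, so its FDR in those settings is not given. Depth limits CDKN1C and CDKN2D most, at 2 to 4 and 32 to 59 reads in Ctrl libraries.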
